A study of Homo sapiens with 4 samples.

Results

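To describe the zinc-finger transcripts of MDA-MB-231 cells, the genes with a symbol made of ZNF, a number and an optional letter were taken from an RNA-seq table of these cells. MDA-MB-231 is an established human triple-negative breast cancer line. The study treated it for 24 h with DMSO, the solvent, or with 10 µM KH-3, a small molecule inhibitor of the RNA-binding protein HuR, with 2 libraries in each group. The paper also describes an RNA-seq group at a lower dose of KH-3, which is not among the samples here. The deposited table gives 1 mean normalized read count per transcript, without values for single libraries, and it is not said over which libraries that mean was taken. All levels below are therefore the authors' mean, with no replicate error and with unknown depth, and the groups are not compared. The members were selected on these same values: the mean normalized read counts of the protein-coding transcripts were summed per gene, and the 270 genes with a sum of at least 100 were kept. They come from 407 ZNF symbols with any transcript in the table. Of these, 393 had a protein-coding transcript, 123 of them summed to less than 100, and 14 had only non-coding transcripts.

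ZNF proteins carry zinc fingers of the C2H2 kind, in which a pair of cysteines and a pair of histidines hold a zinc ion and the residues between them read DNA. Fingers are strung together by short linkers, so that an array of them can recognise a long site. Many of these proteins also carry a KRAB box, which recruits the corepressor TRIM28 and through it the histone methyltransferase SETDB1 and HP1 proteins, and such factors are known for silencing transposable elements. Others carry a SCAN box, through which these factors pair, and some have neither and act as activators, corepressor subunits or RNA-binding proteins.

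Examples of the shared unit of the group are printed here as coding sequence. The following 78-base stretches are the first finger with a standard linker in the leading transcript (the coding transcript with the highest mean) of the 6 highest members by sum that have at least 5 fingers and a finger of this spacing with that linker (threonine, glycine, glutamate or glutamine, lysine or arginine, proline). ZNF644, ZNF217 and ZNF518A have higher sums than some of these. They were passed over, since ZNF644 and ZNF518A have no finger of that form and the first one of ZNF217 runs over an exon border. All lie in the last exon of their transcript, on hg38. Capitals mark the codons of the cysteines and histidines, and the last 15 bases in lower case encode the linker to the next finger.
ZNF664 (chr12:124012409-124012486, plus strand): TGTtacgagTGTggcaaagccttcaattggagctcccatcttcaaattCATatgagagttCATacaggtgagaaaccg
ZNF146 (chr19:36236660-36236737, plus strand): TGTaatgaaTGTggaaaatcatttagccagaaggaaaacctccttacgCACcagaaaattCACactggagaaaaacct
ZNF621 (chr3:40532227-40532304, plus strand): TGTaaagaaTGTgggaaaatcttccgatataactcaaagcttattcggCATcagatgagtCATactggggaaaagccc
ZNF121 (chr19:9566600-9566677, minus strand): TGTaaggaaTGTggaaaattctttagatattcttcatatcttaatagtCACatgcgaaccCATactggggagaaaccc
ZNF22 (chr10:45003621-45003698, plus strand): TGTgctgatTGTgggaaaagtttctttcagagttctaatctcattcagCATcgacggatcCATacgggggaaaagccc
ZNF770 (chr15:34983273-34983350, minus strand): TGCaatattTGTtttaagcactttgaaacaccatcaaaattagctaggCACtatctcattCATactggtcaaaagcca
The 4 zinc-binding codons sit at the same places in all 6 stretches, and only the third base of these codons differs. The bases between the second cysteine and the first histidine, which encode the DNA-reading helix, differ from gene to gene.

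The KRAB box was found by a conserved string of 8 residues near the end of its A part. These 48 bases hold it in the 6 highest members whose leading transcript encodes it, on hg38, with the codons of the string in capitals. All lie in a coding exon before the last one.
ZNF621 (chr3:40529385-40529432, plus strand): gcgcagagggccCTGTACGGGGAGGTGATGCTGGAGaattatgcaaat
ZNF317 (chr19:9157334-9157381, plus strand): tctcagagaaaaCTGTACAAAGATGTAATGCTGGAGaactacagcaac
ZNF445 (chr3:44450460-44450507, minus strand): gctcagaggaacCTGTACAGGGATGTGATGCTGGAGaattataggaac
ZNF468 (chr19:52849100-52849147, minus strand): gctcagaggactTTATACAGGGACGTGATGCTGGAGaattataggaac
ZNF791 (chr19:12623766-12623813, plus strand): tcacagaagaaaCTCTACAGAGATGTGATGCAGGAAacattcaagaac
ZNF45 (chr19:43919586-43919633, minus strand): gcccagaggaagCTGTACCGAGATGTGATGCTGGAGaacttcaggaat
The pattern was leucine, tyrosine, arginine, aspartate, valine, methionine, leucine and glutamate, with up to 2 mismatches, searched in every protein annotated for a gene. ZNF445, ZNF468 and ZNF45 encode it without a mismatch, ZNF317 and ZNF791 with 1 and ZNF621 with 2. The best match had no mismatch in 65 members, 1 in 54, 2 in 27 and 3 in 6, while it had 4 in 26, 5 in 81 and 6 in 11. In other genes only the leading transcript was searched. By leading transcripts alone, 121 of 266 members (45.5%) held the pattern, against 0.116% of 8613 other genes over the same minimum. A match is a string of residues and was not compared with a curated domain list. A KRAB box that differs from the pattern at more than 2 residues is not found. Below, with and without KRAB refer to this pattern, so members without it can still have such a box.

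Of the 270 members, 146 (54.1%) held the KRAB pattern and 15 the SCAN pattern, 4 of them both. The SCAN pattern was glutamate, 2 leucines, valine, leucine, glutamate, glutamine and phenylalanine, also with up to 2 mismatches. The remaining 113 had neither. Members with KRAB carried a median of 12.5 fingers and the others a median of 7.5. Over all members the median was 10 and the range 0 to 36. ZNF142 had the most with 36, followed by ZNF462 with 33, the KRAB factor ZNF91, a known repressor of SVA elements, with 31, and ZNF646 and ZNF236 with 30 each. At the other end, 27 members had 1 to 3 fingers, and in ZNF330, ZNF703, ZNF862 and ZNF503 no finger of the searched form was found. The form was a cysteine, 2 to 4 residues, a cysteine, 12 residues, a histidine, 3 to 5 residues and a histidine, so fingers of other spacing were not counted.

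As a group, the ZNF transcripts were at lower levels than those of other genes. The members summed to 1.05% of the mean normalized reads of all protein-coding transcripts in the table. They were 270 of the 12120 genes with such a transcript. Since a long transcript yields more reads, levels were set side by side per kb, as the sum over coding transcripts of the mean divided by transcript length. The median member had 76.6 mean normalized reads per kb, against 187.9 for the 8887 other genes with a sum of at least 100, and 33 members (12.2%) lay above that median. The quartiles of the members were 48.8 and 129.1 reads per kb, and of the other genes 92.1 and 418.9. Their leading transcripts were longer, with a median of 4076 bases against 3332, and at a given level per kb a longer transcript passes the minimum on the sum more easily. Other zinc-finger symbols lay nearby, with medians per kb of 104.6 for 33 ZBTB genes, 80.8 for 9 ZSCAN genes, 115.3 for 6 ZKSCAN genes and 94.4 for 12 ZFP genes. These values are means without a spread, and no difference between the families was tested.

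Per length, the members with the KRAB pattern were lower than those without it. The median was 63.1 reads per kb with the KRAB pattern, with quartiles of 43.7 and 101.2, and 95.8 without it, with quartiles of 62.1 and 165.2. The ranges between quartiles overlap. The median per kb hardly moved with the number of mismatches in the pattern, being 63.8 for the 65 members with none, 63.5 with 1 and 62.5 with 2. The summed level did move, with medians of 298.4, 228.8 and 176.9, against 361.4 in the members without KRAB. When only the exact pattern counted as KRAB, the median sum of the other 205 members, 274.2, was therefore below that of the KRAB members, while per kb it stayed above (78.4 against 63.8). Of the 124 members without KRAB, 24 (19.4%) exceeded the median of other genes, as did 9 of 146 with KRAB (6.16%). Among the 20 members with the highest summed count, only ZNF621 had the pattern. Per kb it was 3 of the highest 20, namely ZNF621, ZNF480 and ZNF317. The number of fingers and the summed level, which is not corrected for length, showed no relation across the 270 genes (Spearman's rho of -0.04). The summed level rose with the length of the leading transcript (rho of 0.34). Both values describe genes of 1 table and not replicates. The relation of fingers to the level per kb was not computed.

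**Figure D1:**
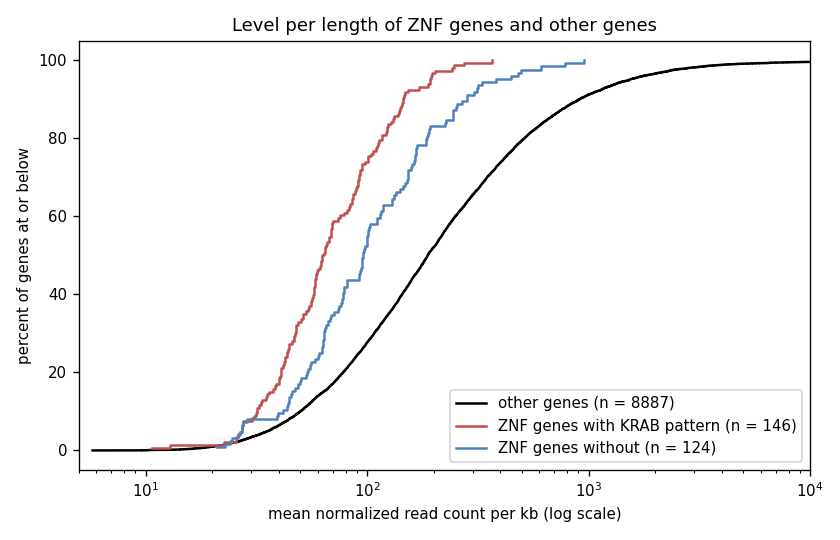
Cumulative share of genes (y axis, percent) by level in mean normalized reads per kb of transcript (x axis, log scale), for ZNF genes with and without the KRAB pattern and for other genes over the same minimum. The curve with KRAB lies to the left, with a median of 63.1, then the curve without (95.8), then the other genes (187.9).

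ZNF664 had the highest summed mean normalized read count, 3353, and ZNF146, whose protein is little more than an array of 10 fingers, the second with 3176. Per kb their order turned, with 780.5 for ZNF664 and 953.2 for ZNF146. Without an error for either value the order of close genes such as these cannot be fixed. ZNF146 came almost wholly from 1 transcript, ZNF146-001 with 3131, while ZNF664 was spread over 4 coding transcripts of like length, with means of 1600, 891.0, 678.5 and 183.9, that all encode the same 9 fingers. The other members among the 20 highest by sum that are not described further on were ZNF518A with 1406, ZNF121 with 1384, ZNF22 with 1263, ZNF770 with 1221, ZNF768 with 1030, ZNF697 with 927.1 and ZNF507 with 920.4. Of these, ZNF22 and ZNF768 stood out per length, with 494.9 and 481.2 reads per kb, and ZNF507 had only 153.3. Of the 20 members with the highest sum, 12 were also among the 20 highest per kb. The remaining 8 of the latter ranged from ZNF263, a SCAN factor with 245.1, to ZNF384 with 318.2.

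Among regulators without KRAB, ZNF24, a SCAN factor, had a sum of 2415 and 380.9 reads per kb. ZNF644, a partner of the histone methyltransferases G9a and GLP, had a sum of 2274 and 444.9 per kb. ZNF609 had 2123 and 244.0 per kb. ZNF217, a corepressor subunit whose gene is often amplified in breast cancer, had 1457 and 268.1 per kb. ZNF281, a repressor studied in stem cells, had 1110, ZNF395 had 919.8, ZNF148 had 834.9 and ZNF384 had 748.4. ZNF462 had 583.4. ZNF143, an activator of small nuclear RNA genes, had 408.0 and 153.6 per kb. ZNF592 and ZNF687, which act in one complex with ZMYND8, had sums of 956.6 and 444.7. The related factors ZNF703, an oncogene of luminal breast cancer, and ZNF503 had 247.5 and 153.0. ZNF219 with 147.1 and ZNF652 with 121.5 were the lowest of this list over the minimum. Of the 18 genes listed as DNA-binding regulators without KRAB, to which ZNF644 and ZNF592 do not belong, 15 had a coding transcript in the table and 14 reached the minimum, with a median sum of 665.9. Among all ZNF genes with a coding transcript, 68.7% reached it. This list and those below were chosen with earlier results of these data known. ZNF410 stayed below it with 77.9, and ZNF423, ZNF711 and ZNF750 had no coding transcript listed.

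All 9 genes listed for roles at RNA, ribosome or spindle were members, against 68.7% of all ZNF genes with a coding transcript. Their sums ran from 183.6 to 2727, with a median of 819.2. ZNF106, an RNA-binding splicing regulator, was the highest with 2727 and 330.7 per kb. ZNF622, which serves the maturation of the large ribosomal subunit, had a shorter transcript of 1699 bases and so reached 612.4 per kb from a sum of 1041, the third highest level per length in the group. ZNF207, a microtubule-binding protein of the spindle known as BuGZ, had 1154 and 314.4 per kb. ZNF638, a factor in the silencing of retroviral DNA, had 1139. ZNF326, which links transcription to splicing, had 819.2, and ZNF330 had 576.0. ZNF593, a nucleolar factor of large subunit export, had a sum of only 194.8 but 281.4 per kb. ZNF598, the ubiquitin ligase of collided ribosomes, had 272.2, and ZNF346, which binds double-stranded RNA, had 183.6. These genes have few fingers of the searched form, 4 in ZNF346, 3 in ZNF106 and ZNF622, and 2 in ZNF207 and ZNF638. ZNF326, ZNF593 and ZNF598 have 1, and none was found in ZNF330.

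The next list held KRAB factors for silencing of transposons, imprinted genes or ribosomal DNA. Of 16, 11 had a coding transcript and 10 reached the minimum, with a median sum of 359.1. This was lower than in either list above, but higher than the median sum of all members (276.5) and of members with KRAB (240.0). ZNF445, which protects imprinted methylation, led with a sum of 844.0, yet had only 78.6 reads per kb because its leading transcript is 10052 bases long. ZNF45 had 665.0 and 197.2 per kb, ZNF267 had 637.0 and 192.0 per kb. ZNF268 had 436.7, ZNF765 had 394.0, ZNF680 had 324.2, ZNF420 had 203.9 and ZNF566 had 182.1. ZNF10, or KOX1, whose KRAB box is widely used as a repressor domain, had 134.0, and ZNF91 had 123.9 and 22.6 per kb. ZNF274 stayed under the minimum with 74.97. ZNF93, ZNF98, ZNF257, ZNF382 and ZNF649 had no coding transcript listed.

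**Figure D2:**
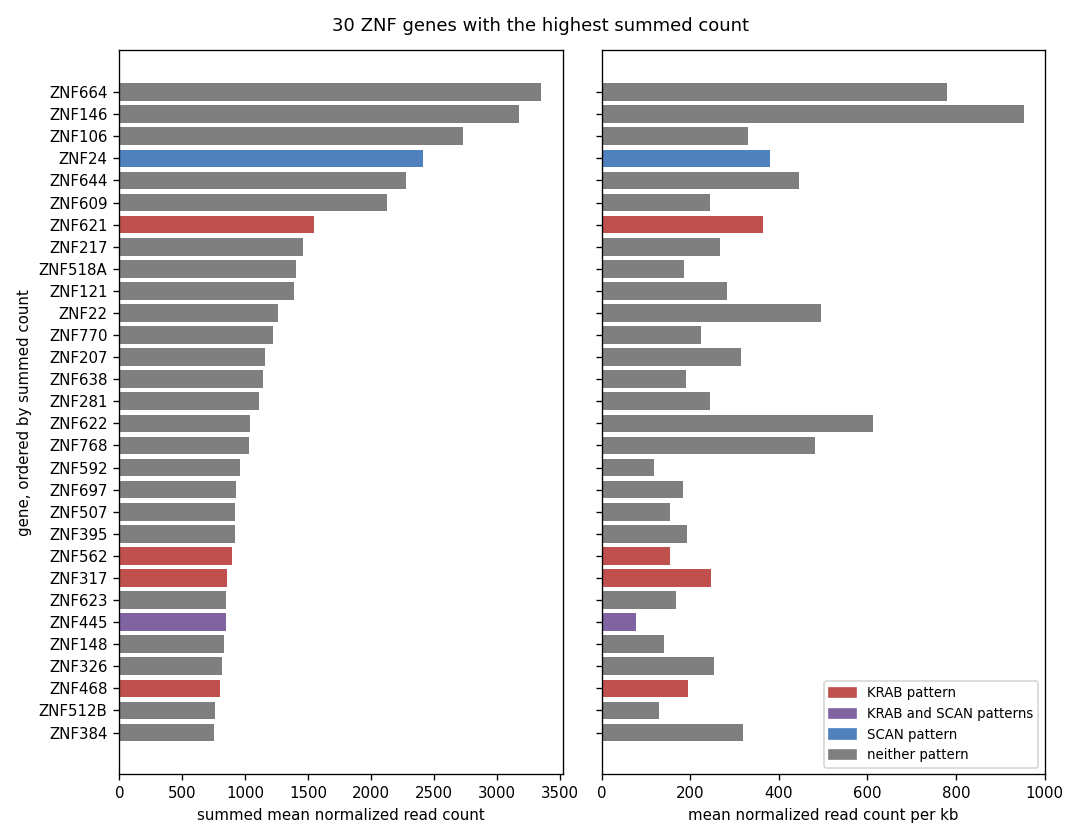
Summed mean normalized read count (left) and mean normalized read count per kb (right) of the 30 ZNF genes with the highest sum, 1 bar per gene, coloured by the patterns found in their proteins. Grey bars without KRAB or SCAN fill most of the plot, ZNF621 is the first gene with KRAB at 1544, and ZNF146 is highest per kb at 953.2.

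Of the partners of the KRAB box, TRIM28 itself had 2802 mean normalized reads per kb and CBX3, an HP1 protein, had 2317, both above every ZNF gene. The deacetylases HDAC2 and HDAC1, with 1179 and 977.9, were also above every ZNF gene, and CBX1, another HP1 protein, had 888.7. SETDB1 had only 116.0, its cofactor ATF7IP 94.9 and MORC3 71.6. These values lie within the quartiles of the ZNF genes, as do those of PPHLN1 with 115.3 and DNMT3A with 60.3. Of the 21 pathway genes, 20 reached a sum of 100 and DNMT3B did not, with 82.5. Among all genes outside the ZNF symbols with a coding transcript, 75.8% reached it. Among markers of the line, VIM had 3786 reads per kb, AXL 2814 and CAV1 2599, while CDH1, ESR1 and PGR had no coding transcript listed. Of the other mesenchymal markers listed, CD44 had 427 reads per kb, but SPARC had only 84.0 and FN1 7.35. Of the luminal or epithelial genes, KRT18, a keratin of simple epithelia, was high with 3542, and KRT8 had 331.1. EPCAM, GATA3 and ERBB2 lay at 43.3, 29.5 and 24.1.

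The genes were gathered on chromosome 19, which held 108 of the 270 members (40.0%) against 5.18% of the other genes. Of the 393 ZNF genes with a protein-coding transcript at any level, 176 lay there. The gathering thus belongs to the listed ZNF genes as a whole and is not particular to those over the minimum. Members made up 19.01% of all genes over the minimum on this chromosome. Chromosome 7 held 22, chromosome 16 held 17 and chromosome 1 held 14, and chromosomes 13, 21 and 22 held none. On chromosome 19, 88 members (81.5%) had the KRAB pattern, and elsewhere 58 of 162 (35.8%). The level per kb of KRAB members was close on chromosome 19 and elsewhere, with medians of 59.4 and 67.9. Those without KRAB had 123.6 on chromosome 19 (20 genes) and 94.8 elsewhere (104 genes).

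**Figure D3:**
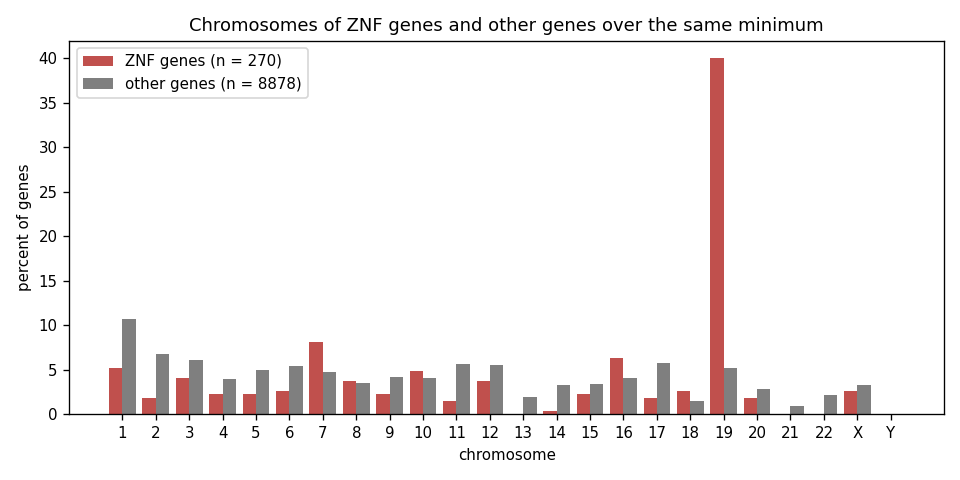
Percent of the 270 ZNF genes and of the other genes over the same minimum (y axis) on each chromosome (x axis). Chromosome 19 holds 40.0% of the ZNF genes and 5.18% of the others.

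When members less than 500 kb apart were joined, 13 runs of at least 5 members emerged, 8 of them on chromosome 19, which held 94 of its 108 members. Positions are those of the GENCODE release 44 genes on hg38. The largest run by count spans chr19:57191500-58475436, with 22 members between ZNF264 and ZNF324, 20 of them with KRAB, and a median of 47.6 reads per kb. The run at chr19:51571283-53461862 held 20 members, all with KRAB, and a median of 85.6. It includes ZNF480, with 273.0 reads per kb the highest of the run, and ZNF468. The run at chr19:9140397-9675100, from ZNF317 to ZNF562, had the highest median of the 13, 147.4 reads per kb over 8 members, led by ZNF121 with 283.6. The run at chr19:36214602-37469275 had a median of 57.7 over 11 members, and yet begins with ZNF146 at 953.2. The lowest median, 37.8 over 6 members, was that of chr12:132918306-133214832, where ZNF10, ZNF84 and ZNF268 lie, and all 6 had KRAB. In 4 of the 13 runs the KRAB pattern was in the minority. It was found in 1 of 9 members at chr7:149069641-149867479, 1 of 5 at chr16:3112560-3443504, 2 of 6 at chr16:30378106-31084196 and 2 of 8 at chr19:55576774-56626481. KRAB boxes that differ more from the pattern would be missed, so this is no count of KRAB boxes. The median numbers of fingers in these runs were 5, 7, 11 and 7.5. Members of one run ranged widely: within the run of ZNF146, summed levels went from 123.4 for ZNF569 to 3176.

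A few members are near copies of one another, and reads of near copies can be assigned to either. By global alignment of the longest annotated proteins, the most alike pair was ZNF587 and ZNF417 with 98.1% identity, followed by ZNF585A and ZNF585B (94.5%), ZNF33A and ZNF33B (86.6%), ZNF324 and ZNF324B (83.5%) and ZNF430 and ZNF100 (78.6%). Of the 50-base words in the leading transcript of ZNF417, 35.6% also occur in a coding transcript of ZNF587. Their sums, 269.8 for ZNF417 and 601.2 for ZNF587, are therefore uncertain as separate values. ZNF585A had a sum of 450.5 and ZNF585B of 312.1, with 17.0% and 19.5% of words shared. Among members such sharing was limited in extent: of 266 leading transcripts in the reference, 173 shared no word with another member, 16 shared over 5% and 8 over 10%. Words shared with genes outside the members were not part of this count.

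The number of coding transcripts was much like that of other genes, with a median of 2 in both. The members had 633 protein-coding transcripts in the table, at most 8 per gene. A single one was listed for 68 members (25.2%), against 27.6% of other genes. The leading one held a median of 77.3% of the sum, against 85.7% in other genes. The lowest share was that of ZNF266, where the leading transcript held 28.6% and the next 2 held 26.2% and 22.7%, all encoding the same 12 fingers. ZNF484, ZNF189, ZNF841 and ZNF239 followed with 32.9% to 35.2%. Non-coding transcripts were less common than in other genes, being listed for 85 members (31.5%) against 58.3%. In 7 members they outweighed the coding ones. ZNF598 stood first, with 65.8% of its listed reads in 4 retained-intron transcripts, of which ZNF598-003 (274.3) was level with the coding ZNF598-001 (272.2). In ZNF652, 61.4% lay in a single non-coding transcript, the nonsense-mediated-decay transcript ZNF652-003 with a mean of 193.6. ZNF343 (55.0%), ZNF277 (54.2%), ZNF514 (53.5%), ZNF589 (50.4%) and ZNF76 (50.2%) made up the rest. Lowly covered transcripts are not in the table, where the smallest mean is 7.34, so a gene at a low level has fewer chances to show one.

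What the leading transcript encodes was not always the full factor. In 10 of 266 members with a leading transcript in the reference, that transcript encoded no finger although the gene has them. ZNF468 was the clearest by level: ZNF468-002, with a mean of 661.5, encodes 127 residues that include the KRAB sequence printed above but no finger, and ZNF468-001, with 134.8, encodes the full 10 fingers. Transcripts without a finger thus held 83.1% of the ZNF468 reads. The share was 78.1% in ZNF268, 87.0% in ZNF138, 78.8% in ZNF300, 63.8% in ZNF559 and 54.9% in ZNF595. It was 53.9% in ZNF280D, 50.1% in ZNF35 and only 39.7% in ZNF226, where most reads lay in transcripts with fingers. ZNF286A had 1 listed coding transcript, of 116 residues without a finger. In 8 of the 10, fingers could still be read in the transcript after its stop codon, 12 in ZNF468-002 and 24 in ZNF268-003. Those 2 transcripts share 95.1% and 98.5% of their 50-base words with other coding transcripts of their gene. Reads that match both kinds were divided between them by the estimate of eXpress, so these shares are uncertain.

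**Figure D4:**
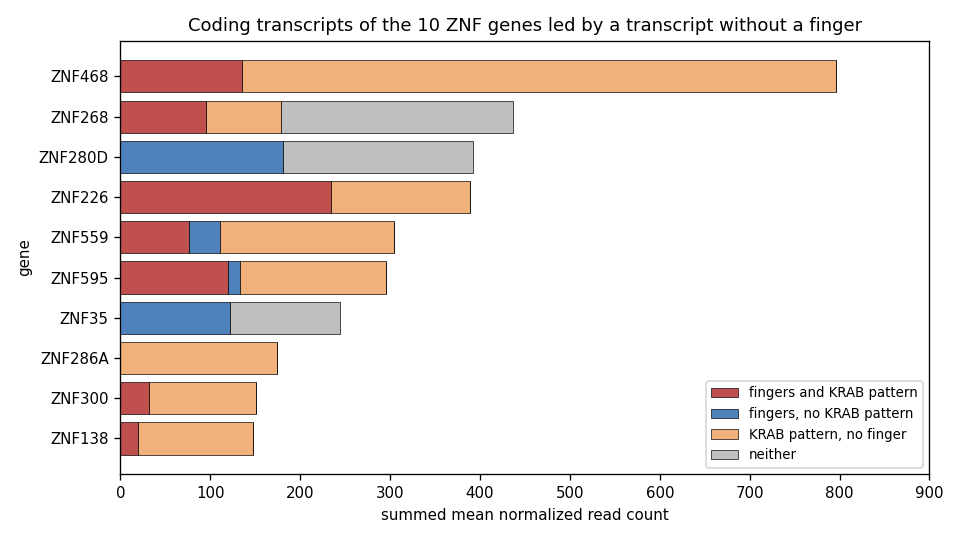
Summed mean normalized read count (x axis) of the coding transcripts of the 10 ZNF genes whose leading transcript encodes no finger, split by what the transcripts encode. In ZNF468 a finger-less transcript with KRAB makes up 661.5 of 796.3.

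The reverse was more frequent. In 23 of 144 KRAB members (15.97%) the leading transcript lacked the KRAB pattern that another annotated transcript of the gene holds, and 22 of these leading transcripts encoded fingers. ZNF562 was the most abundant: ZNF562-001, with a mean of 697.0, encodes 6 fingers in 354 residues without the pattern, while ZNF562-002, with 163.6, encodes 6 fingers in 426 residues with it. Only 22.0% of the ZNF562 reads lay in transcripts with KRAB. The median of this share over the 23 genes was 22.0%, and in ZNF189 (65.2%), ZNF484 (54.9%), ZNF343 (54.4%) and ZNF33A (53.0%) most reads still lay in transcripts with KRAB, spread over others than the leading one. The share was 13.8% in ZNF561, a neighbour of ZNF562, 12.7% in ZNF266, 2.93% in ZNF585A and 2.52% in ZNF655, and none of the listed transcripts of ZNF721 or ZNF600 held the pattern. Over all 146 KRAB members, 74.1% of the reads came from transcripts with both the pattern and fingers, and 9.24% from transcripts without a finger.

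HuR binds AU-rich and U-rich stretches, often in the 3′UTR, and AUUUA is the core of the classical AU-rich element. In the leading transcripts of 265 members with a 3′UTR in the reference, 220 (83.0%) had at least 1 AUUUA, against 75.7% of 8557 other genes. Their 3′UTRs were also longer, with medians of 2078 and 1388 bases. Per kb of 3′UTR the medians were 1.89 and 1.88 AUUUA, and the A and U content was 60.1% and 59.1%. The share with AUUUA was thus higher in the members, and the density was nearly the same. The 3′UTRs are those of release 44, and in 32 members and 685 other genes the coding part and 3′UTR together are longer than the transcript counted by the authors. Without these, 80.7% of 233 members and 74.3% of 7872 other genes had AUUUA, with median 3′UTRs of 1841 and 1300 bases and 1.86 and 1.81 AUUUA per kb. The longer UAUUUAU was in 39.2% of members and 37.5% of other genes, and UUAUUUAUU, which contains both shorter motifs, in 12.8% and 10.1% (10.3% and 9.65% without the transcripts that are too short). Across members the number of AUUUA rose with 3′UTR length (Spearman's rho of 0.75 over 265 genes of 1 table). ZNF207 had 36 in a 3′UTR of 12126 bases, ZNF431 had 44 in 12019 bases, and ZNF622 had none in 138 bases.

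The sites with UUAUUUAUU are shown for the 5 highest members that have it in a 3′UTR that fits within the counted transcript, to give its sequence context. Each line is the first match in the 3′UTR, in the last exon, in capitals with 10 bases on each side, on hg38 with T for U.
ZNF24 (chr18:35335191-35335219, minus strand): atgatgtgatTTATTTATTtataactggc
ZNF281 (chr1:200406107-200406135, minus strand): ggggcatgcaTTATTTATTatacatggcc
ZNF507 (chr19:32385859-32385887, plus strand): gaataacatgTTATTTATTggtattgact
ZNF562 (chr19:9643349-9643377, minus strand): ttttctaaacTTATTTATTtatgaatgac
ZNF468 (chr19:52838688-52838716, minus strand): tcttttaaaaTTATTTATTgttaatgtat
ZNF24 has 3 such matches and the other genes 1 each. These are matches of letters in the reference, and binding of HuR to them was not measured in the data used here.

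**Figure D5:**
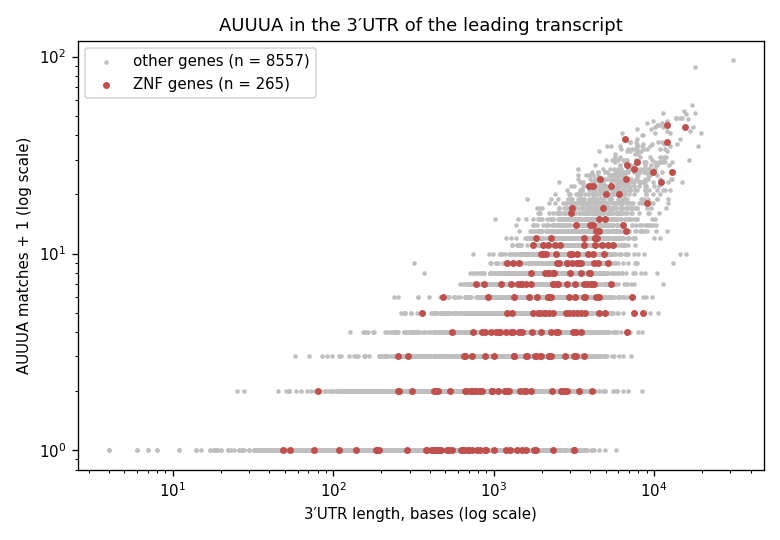
Number of AUUUA plus 1 (y axis, log scale) against 3′UTR length in bases (x axis, log scale) for the leading transcript of each gene. The 265 ZNF genes lie within the cloud of 8557 other genes.

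At the border of the selection, ZNF543 (100.4), ZNF550 (100.9), ZNF81 (101.9), ZNF764 (102.0) and ZNF552 (102.4) were just inside, and ZNF18 (99.1), ZNF223 (98.8), ZNF555 (98.2), ZNF558 (97.5) and ZNF724 (96.4) just outside. The 123 ZNF genes below the minimum had a median sum of 51.7.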

How the data were processed

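MDA-MB-231 cells received DMSO or KH-3 at 10 µM (2 libraries each, assigned by the sample labels), and their mRNA was sequenced. The authors aligned the reads with STAR to GENCODE release 24 transcripts (hg38), estimated reads per transcript with eXpress and compared groups with DESeq2, whose normalized counts the mean is taken to come from. Tool versions are not given in the sources used here. The deposited signal used here is the authors' mean normalized read count per transcript, 1 value per transcript; over which libraries it was taken is not given. The table also holds the authors' own fold changes, p-values and q-values, which were not used. Depth per library, replicate error and treatment effects are therefore not given, and no test was run.

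Protein-coding means were summed per gene. Levels per kb are sums of mean over transcript length. Transcripts were matched by ID without version to GENCODE release 44, found for 614 of the 633 coding transcripts of members, and 38.0% of the leading ones found had the same length in both. Coding parts were translated for pattern counts. Functions were tested on simulated data with known answers. The members and gene lists were chosen with earlier results of these data known. Named are the 20 highest members by sum and per kb, members at the extremes of each feature and at the minimum, the closest protein pairs, and fixed lists by role; single runs and transcripts were named after their values were seen. Python 3.11.15, pandas 2.3.3, scipy 1.17.1, Biopython 1.88 and matplotlib 3.10.9 were used.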

Additional observations from a re-analysis of the deposited data

How the results depend on the processing

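Of 22 alternatives for 11 results, 18 left the value within 1.5 times (shares: within the 95% Wilson interval). The number of members was 333 at a minimum of 50, 181 at 200, 289 with all transcript types summed and 237 when 1 transcript had to reach 100. With the exact KRAB pattern, 24.1% of members held it, and the median sum without KRAB fell from 1.51 to 0.92 times that with KRAB, which turned the order; the setting moves members with 1 or 2 mismatches to the group without. With up to 3 mismatches 56.3% held it. Per kb the ratio was 1.52, and 1.23 with the exact pattern. The share with an AU-rich element was 39.2% for UAUUUAU in place of AUUUA. The median share in non-coding types, 0 over all members, was 10.5% over those with such a transcript. Without transcripts too short for their 3′UTR the share with AUUUA was 80.7%. This setting, up to 3 mismatches and those for the ratio were chosen after seeing the data. Leaving out a library was not run, as the table holds no values per library. No paired analysis was possible because the values are 1 mean per transcript. Depth is unknown, so no limit of detection can be given beyond the smallest listed mean.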
